A study of Rattus norvegicus with 24 samples.

Results

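The desmosome and plakin genes of rat skin described here are 10 genes: 4 desmosomal cadherins (Dsg1, Dsg3, Dsc1 and Dsc3), 3 armadillo proteins (Jup, Pkp1 and Pkp3) and 3 plakins (Dsp, Evpl and Ppl). They were chosen by name from a table of 23095 genes, and each name stood on 1 row. All 10 passed the filter on low counts, with totals over the 24 libraries of 14857 (Pkp3) to 357024 (Dsp) counts. In skin injected intradermally with gel all 10 were lower than after intradermal saline, and in skin injected subcutaneously with gel 6 of the 10 were higher than after subcutaneous saline. Of all 14763 genes tested, 37.0% were called lower after intradermal gel and 24.7% higher after subcutaneous gel.

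Messenger RNA was measured in the dorsal skin that had been injected 7 days earlier, in Sprague-Dawley rats. The groups were intradermal T-gel (ID gel), intradermal saline (ID saline), subcutaneous T-gel (SC gel) and subcutaneous saline (SC saline), with 6 libraries each. The study asked how the response of skin to T-gel, an injected polymer gel, depends on the site of injection. The labels name no age, and do not say whether each library came from a separate animal, so p-values measure only the spread between these libraries. All 4 groups were injected, so saline skin is injected skin and not untouched skin.

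Library totals were 14024353 to 18821730 counts. Levels are given as CPM (a library's counts scaled to its depth, with TMM factors) within a gene, and as FPKM (fragments scaled to gene length and depth, deposited by the authors) where genes are compared with each other. Keratinocyte markers were present in every library, at a summed 1564 to 5701 CPM in ID gel skin, 5857 to 11206 CPM in ID saline skin, 13900 to 21364 CPM in SC gel skin and 5612 to 7695 CPM in SC saline skin. In whole skin, fewer cells of a type and less RNA per cell cannot be told apart.

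Desmosomes are button-like junctions that tie the keratin filaments of neighbouring keratinocytes together and give the epidermis its mechanical strength. Desmogleins and desmocollins are the cadherins that meet between the cells. Inside the cell, plakoglobin (Jup) and the plakophilins bind the cadherin tails, and desmoplakin (Dsp) links them to keratin. Envoplakin (Evpl) and periplakin (Ppl) are related plakins that also serve as an early scaffold of the cornified envelope, the crosslinked protein shell of the dead surface cells. Dsg1 and Dsc1 are most abundant in the upper epidermis, and Dsg3 and Dsc3 in its lower layers. Autoantibodies to DSG1 and DSG3 cause the blistering diseases pemphigus foliaceus and pemphigus vulgaris in people.

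The measured desmosomal cadherin genes lie close together on chromosome 18. In the order of the deposited table they are Dsc3 (ENSRNOG00000017159, chr18:11377347-11413797), Dsc2 (ENSRNOG00000039969, chr18:11450390-11482392), Dsc1 (ENSRNOG00000056258, chr18:11502003-11528494), Dsg1 (ENSRNOG00000016853, chr18:11674402-11703443), Dsg3 (ENSRNOG00000016632, chr18:11798900-11830818) and Dsg2 (ENSRNOG00000016526, chr18:11846183-11904156). The desmocollins are on the minus strand and the desmogleins on the plus strand. The other members lie apart, with Ppl (ENSRNOG00000002930), Jup (ENSRNOG00000015380) and Evpl (ENSRNOG00000009343) on chromosome 10, Pkp3 (ENSRNOG00000015152) on chromosome 1, Pkp1 (ENSRNOG00000010076) on chromosome 13 and Dsp (ENSRNOG00000013928) on chromosome 17. These gene coordinates are printed as in the table and without a build, because the build in the submitters' processing notes, Rnor_6.0, does not match the names of all its sequences.

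The promoters of the 4 cadherin members and of Dsc2 are shown because Dsc2 rose after ID gel while the 4 members fell. Each is the RefSeq sequence of build GRCr8 from 250 bases before to 50 bases after the gene's start, 5′ to 3′ on the gene's strand. Capitals mark matches to GATAA or CACCC on either strand, so that GGGTG is CACCC read on the other strand, and no match overlaps another.
Dsg1, chr18:11947848-11948147, plus strand: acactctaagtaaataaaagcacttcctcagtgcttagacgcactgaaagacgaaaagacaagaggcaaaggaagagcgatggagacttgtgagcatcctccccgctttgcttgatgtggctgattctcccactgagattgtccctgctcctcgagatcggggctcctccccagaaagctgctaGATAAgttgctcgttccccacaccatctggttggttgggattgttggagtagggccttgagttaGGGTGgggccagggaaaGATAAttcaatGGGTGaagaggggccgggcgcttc
Dsg3, chr18:12074071-12074370, plus strand: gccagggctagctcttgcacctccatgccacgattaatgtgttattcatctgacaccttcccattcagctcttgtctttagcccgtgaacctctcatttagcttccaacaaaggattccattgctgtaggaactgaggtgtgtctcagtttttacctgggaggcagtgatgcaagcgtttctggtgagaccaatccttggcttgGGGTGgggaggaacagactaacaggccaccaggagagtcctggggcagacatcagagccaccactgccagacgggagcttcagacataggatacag
Dsc1, chr18:11803473-11803772, minus strand: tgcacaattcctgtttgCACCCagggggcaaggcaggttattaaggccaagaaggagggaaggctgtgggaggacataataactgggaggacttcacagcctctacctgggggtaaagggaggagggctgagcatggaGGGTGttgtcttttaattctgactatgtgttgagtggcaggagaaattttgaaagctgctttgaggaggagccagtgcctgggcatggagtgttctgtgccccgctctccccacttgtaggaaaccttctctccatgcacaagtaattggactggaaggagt
Dsc2, chr18:11757417-11757716, minus strand: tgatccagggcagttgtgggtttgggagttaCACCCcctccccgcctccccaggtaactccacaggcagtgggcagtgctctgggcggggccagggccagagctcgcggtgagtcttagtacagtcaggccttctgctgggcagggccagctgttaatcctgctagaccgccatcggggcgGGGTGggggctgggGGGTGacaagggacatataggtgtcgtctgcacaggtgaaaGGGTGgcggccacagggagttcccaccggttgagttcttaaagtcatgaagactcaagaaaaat
Dsc3, chr18:11688822-11689121, minus strand: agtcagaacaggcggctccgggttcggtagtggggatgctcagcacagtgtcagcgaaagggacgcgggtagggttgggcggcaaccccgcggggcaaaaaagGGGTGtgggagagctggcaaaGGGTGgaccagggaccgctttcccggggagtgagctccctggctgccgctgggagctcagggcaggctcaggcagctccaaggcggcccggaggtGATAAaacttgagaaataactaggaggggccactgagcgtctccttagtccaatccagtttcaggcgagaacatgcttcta

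RefSeq promoters were found for 8 of the 10 members; Pkp3 and Evpl had none in the table used. Motifs of factors known in epidermis were searched on both strands, namely TGANTCA (AP-1), AACNNGTT (grainyhead-like), GATAA (GATA) and CACCC (KLF). CACCC stood in 8 of 8 member promoters and in 54.9% of 33469 promoters of that length. The letters G and C made up 52.0% (Dsg3 and Dsc1) to 75.0% (Dsp) of the member windows, against a median of 51.7% over all promoters. The part of this content in the CACCC matches was not tested. GATAA stood in 2 of 8, those of Dsg1 and Dsc3, against 26.5% of all promoters. TGANTCA and AACNNGTT stood in none of the 8 windows, against 7.33% and 4.23% of all promoters. The Dsc2 window held 4 matches to CACCC and none to the other motifs. CpG dinucleotides numbered 1 in the Dsc1 window, 4 in Dsg3, 9 in Dsg1 and 16 in Dsc3, beside 22 in Pkp1, 25 in Jup, 35 in Dsp and 40 in Ppl, and the median of all promoters was 7. These matches and counts describe the letters of the windows and say nothing of binding.

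After intradermal gel, all 10 members fell. The falls spanned each role of the desmosome, from the adhesive cadherins to the plakins that hold the keratin filaments. Pkp3 fell most, to 0.174 of its level after ID saline, and Dsg3 least, to 0.47 of it. Of all 14763 genes tested, 37.0% were called lower and 36.6% higher in this comparison, so a fall by itself was common, and the median of all genes was -0.01 on the log2 scale against -1.90 over the members. Overlap between groups is given below for the genes named only, and its share over all genes was not computed.

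Dsg1, the desmoglein of the upper epidermis, had 57.8 CPM in the lowest, 106 in the median and 194 in the highest ID gel library, against 334, 475 and 634 CPM in ID saline libraries. The groups did not overlap, and ID gel replicates 1 to 3 were the 3 lowest libraries. Its log2 fold change was -2.07 ± 0.25 (SE), a 4.2-fold lower level (edgeR's quasi-likelihood test, Benjamini-Hochberg adjusted p = 7.25e-08). Dsg3, the desmoglein of the lower layers, had 18, 20.5 and 35.9 CPM in the lowest, median and highest ID gel libraries, against 36, 50.8 and 62.6 CPM in ID saline libraries. The highest ID gel library, replicate 4, was just below the lowest ID saline library, replicate 5. The log2 fold change of Dsg3 was -1.09 ± 0.19 (adjusted p = 2.42e-05 by the same test).

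Dsc1, the desmocollin of the upper epidermis, had 21.8, 48.3 and 83.1 CPM as its lowest, median and highest values in ID gel skin, against 118, 189 and 246 CPM in ID saline skin. Dsc3, the desmocollin of the lower layers, had 70.6, 115 and 174 CPM in ID gel skin, against 309.6, 442 and 538 CPM in ID saline skin. Neither gene's groups overlapped. Their log2 fold changes were -1.89 ± 0.26 for Dsc1 and -1.86 ± 0.22 for Dsc3, with adjusted p of 6.91e-07 and 7.02e-08 by edgeR's quasi-likelihood test.

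**Figure D1:**
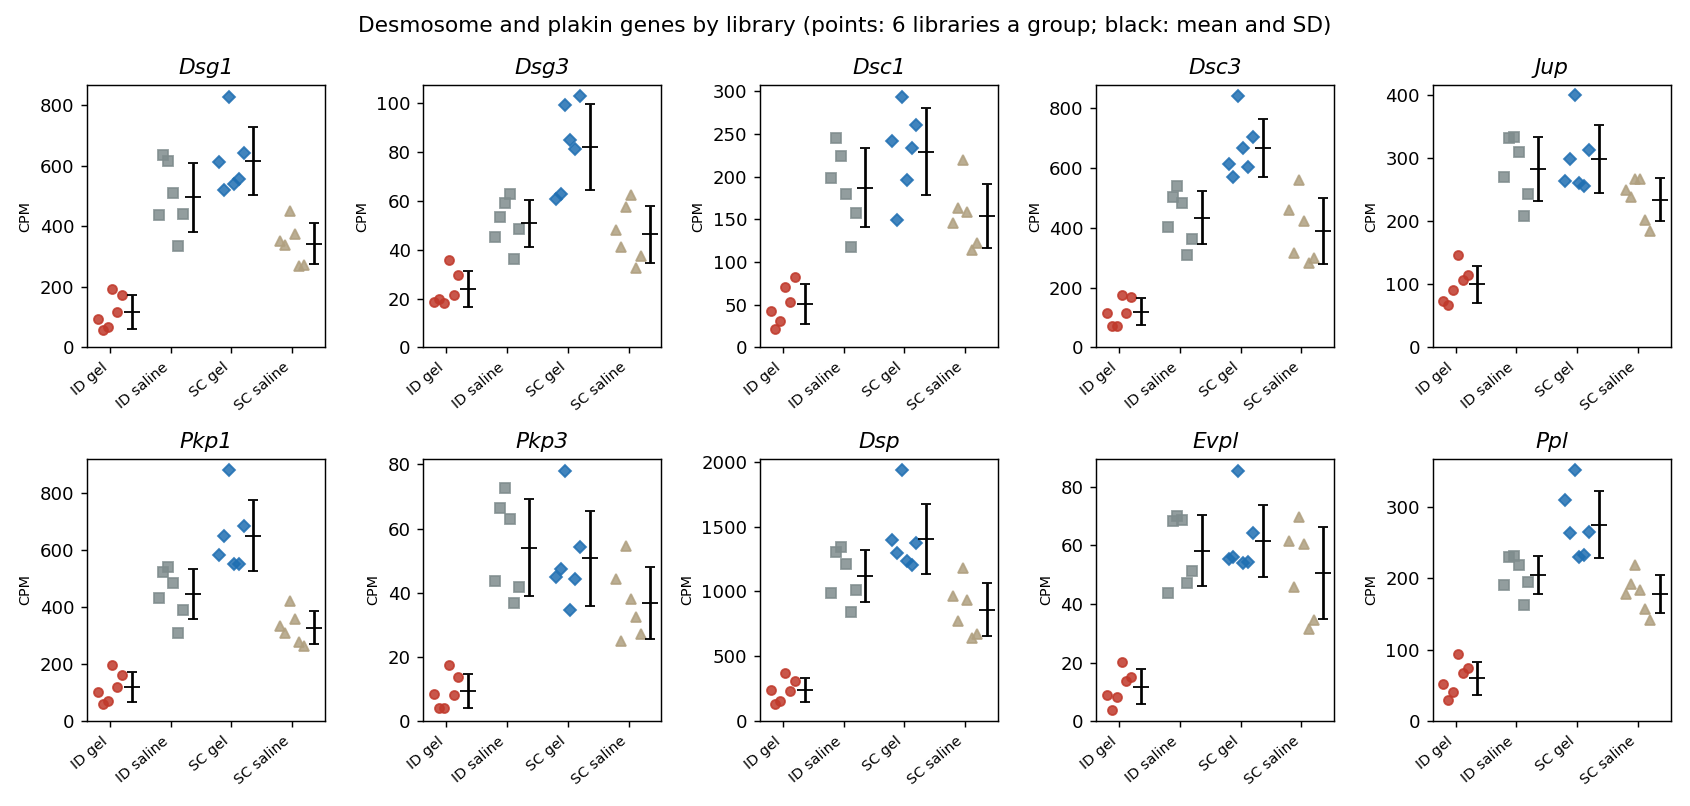
CPM of each of the 10 members (y axis, from 0) in the 6 libraries of each group (x axis), with the mean and SD in black. Every ID gel point lies below every ID saline point of the same gene, by the smallest margin in Dsg3 (35.9 against 36 CPM), and SC gel replicate 3 is the highest SC gel point in 9 of 10 panels. How common such a separation is over all genes was not computed.

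Among the armadillo proteins, Jup, the plakoglobin shared by desmosomes and adherens junctions, had 66.9, 99.2 and 147 CPM as its lowest, median and highest values in ID gel skin, against 208, 289.9 and 333 CPM in ID saline skin. Pkp1, the plakophilin of the suprabasal layers whose loss causes skin fragility in people, had 60.4, 112 and 199 CPM in ID gel skin, against 309.9, 459.5 and 542 CPM in ID saline skin. Pkp3, a plakophilin found through the whole epidermis, had 4.07, 8.39 and 17.4 CPM in ID gel skin, against 36.9, 53.4 and 72.6 CPM in ID saline skin. All 3 were without overlap, and the armadillo genes held both the largest and one of the smallest falls among the members. The log2 fold change was -1.5 ± 0.17 for Jup (adjusted p = 3.28e-08), -1.90 ± 0.23 for Pkp1 (8.63e-08) and -2.53 ± 0.31 for Pkp3 (9.87e-08, edgeR's quasi-likelihood test).

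Of the plakins, Dsp had 136, 235 and 371 CPM as its lowest, median and highest values in ID gel skin, against 841, 1113 and 1346 CPM in ID saline skin. Evpl had 3.8, 11.4 and 20.3 CPM in ID gel skin, against 43.7, 59.8 and 70.1 CPM in ID saline skin. Ppl had 29.0, 59.6 and 93.8 CPM in ID gel skin, against 163, 207 and 231 CPM in ID saline skin. No plakin overlapped between the groups, and Dsp, the link to keratin, had the smallest adjusted p of all members. Log2 fold changes were -2.22 ± 0.22 for Dsp (adjusted p = 3.42e-09), -2.31 ± 0.28 for Evpl (9.35e-08) and -1.78 ± 0.20 for Ppl (2.77e-08, edgeR's quasi-likelihood test).

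The ID gel libraries differed among themselves in step across the members. The summed CPM of the 10 genes was 755, 470.4 and 561 in ID gel replicates 1 to 3 and 1324, 856 and 1146 in replicates 4 to 6, against 2404 to 4029 in ID saline skin. Replicate 2 was the lowest ID gel library for 8 members and replicate 4 the highest for 9. With gel replicates 1 to 3 alone the log2 fold changes ran from -3.26 to -1.44, and with replicates 4 to 6 alone from -2.05 to -0.82. All 10 members were called lower in each of these settings (edgeR's quasi-likelihood test, highest adjusted p 1.68e-05 and 0.00272). Of all genes, 36.1% and 32.7% were called lower in them. The split was not particular to the members. Krt5 had 265, 164 and 175 CPM in ID gel replicates 1 to 3 and 558, 323 and 415 CPM in replicates 4 to 6. Tp63 had 32.0, 18.1 and 17.8 CPM against 58.6, 39.0 and 48.3 CPM, and Krt10 1050, 587 and 789 CPM against 2133, 1154 and 1501 CPM. The labels give no reason for the split.

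Marker lists of cell types changed at this site too, some in the members' direction and some in the other. The keratinocyte list fell in 10 of 10 genes (median -1.96), with Krt14 and Krt15 left out for want of a usable row. Krt5, Krt1, Krt10, Krt77, Tp63, Cdh1 and Perp of this list also belong to lists given below. Those lists are therefore not independent of it. The macrophage list had 7 of 10 genes higher and none lower, with a summed level of 11830.2 to 17632 CPM in ID gel skin, against 803 to 1814 CPM in ID saline skin. The skeletal muscle list had 7 of 8 tested genes lower, with sums of 10.8 to 15507 CPM in ID gel skin, against 45612 to 59217 CPM in ID saline skin. The hair follicle list fell in 10 of 10 genes, with sums of 24.3 to 103 CPM in ID gel skin, against 1125 to 3531 CPM in ID saline skin. Sebaceous gland genes fell in 5 and rose in 1 of 7, with sums of 524 to 849 CPM in ID gel skin, against 1234 to 2069.6 CPM in ID saline skin. Mast cell genes fell in 4 of 5, with sums of 24.7 to 58.0 CPM in ID gel skin, against 81.5 to 122 CPM in ID saline skin, and adipocyte genes in 4 of 5, with 524 to 717 CPM in ID gel skin, against 637 to 979 CPM in ID saline skin. Endothelial genes fell in 4 and rose in 1 of 5, and fibroblast and melanocyte genes rose in 3 and fell in 1, of 7 and 5. No gene of these lists was at 0 in all libraries of either ID group. Their part in the fall of the members was not tested.

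After subcutaneous gel the direction was the other one. Dsg1, Dsg3, Dsc3, Pkp1, Dsp and Ppl rose, by 1.54-fold (Ppl) to 1.99-fold (Pkp1), and no member fell. Dsc1, Jup, Pkp3 and Evpl had positive log2 fold changes that did not pass the test. Of all genes tested, 24.7% were called higher and 26.1% lower, and on the deposited FPKM scale, without TMM factors, 43.9% and 15%. The median log2 fold change was 0.66 over the members and 0.00 over all genes, which the FPKM scale moved to 0.19.

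Among the cadherins, Dsg1 had 520.4, 583 and 828 CPM as its lowest, median and highest values in SC gel skin, against 269, 345 and 450.4 CPM in SC saline skin. Dsg3 had 60.6, 83.0 and 103 CPM in SC gel skin, against 32.3, 44.5 and 62.2 CPM in SC saline skin. Dsc3 had 569, 639 and 838 CPM in SC gel skin, against 281, 369.7 and 560 CPM in SC saline skin. Dsg1 and Dsc3 were without overlap, and in Dsg3 only the lowest SC gel library, replicate 1, lay below the highest SC saline library, replicate 4. The log2 fold changes were 0.84 ± 0.24 (adjusted p = 0.00502), 0.82 ± 0.19 (0.00103) and 0.77 ± 0.21 (0.00457) for Dsg1, Dsg3 and Dsc3 by edgeR's quasi-likelihood test.

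Dsc1 had 149.8, 238 and 294 CPM as its lowest, median and highest values in SC gel skin, against 114, 152 and 219.7 CPM in SC saline skin. The groups overlapped, since SC gel replicates 2 and 4 lay below SC saline replicate 3. Its log2 fold change of 0.58 ± 0.25 missed the threshold (adjusted p = 0.0586), with an approximate 95% interval of 0.09 to 1.07. It was called, at 0.61 to 0.74 (adjusted p 0.022 to 0.0477), when any one of SC gel replicates 2 and 4, SC saline replicates 2 and 3, ID gel replicates 2, 3, 4 and 6 and ID saline replicates 2 and 5 was left out.

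Pkp1 had 550.4, 617 and 881 CPM as its lowest, median and highest values in SC gel skin, against 263, 322 and 422 CPM in SC saline skin. The groups did not overlap, and its rise of 0.99 ± 0.22 log2 units was the largest of the members at this site (adjusted p = 0.000774, edgeR's quasi-likelihood test). Jup had 256, 281 and 399 CPM in SC gel skin, against 184, 243 and 267 CPM in SC saline skin, and Pkp3 had 34.7, 46.3 and 78.1 CPM in SC gel skin, against 25.0, 35.3 and 54.6 CPM in SC saline skin. Both overlapped. Neither passed the test, with 0.35 ± 0.17 for Jup (approximate 95% interval 0.02 to 0.67, adjusted p = 0.0822) and 0.46 ± 0.28 for Pkp3 (-0.10 to 1.01, adjusted p = 0.185). Jup was called without SC saline replicate 2 (0.48, adjusted p = 0.0261) and without ID gel replicate 2 or 4 (0.38, adjusted p = 0.0431 and 0.0373).

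Dsp had 1203, 1334 and 1934 CPM as its lowest, median and highest values in SC gel skin, against 643, 851 and 1184 CPM in SC saline skin. Ppl had 229.7, 263 and 351 CPM in SC gel skin, against 142, 181 and 218 CPM in SC saline skin. Both were without overlap, with log2 fold changes of 0.71 ± 0.21 for Dsp (adjusted p = 0.0069) and 0.62 ± 0.19 for Ppl (0.00963) by edgeR's quasi-likelihood test. Evpl had 54.0, 55.7 and 85.5 CPM in SC gel skin, against 31.5, 53.2 and 69.8 CPM in SC saline skin. All SC gel libraries but replicate 3 lay below SC saline replicate 3, and its log2 fold change of 0.28 ± 0.26 was the smallest of the members (approximate 95% interval -0.23 to 0.79, adjusted p = 0.377).

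In all, 5 of the 10 members were without overlap between SC gel and SC saline skin. The share of all genes without overlap was not computed, so this count has nothing to be read against. SC gel replicate 3 was the highest SC gel library for 9 members, and SC saline replicate 3 the highest SC saline library for 9. With gel replicates 1 to 3 alone 7 members were called higher, and the log2 fold changes of the 10 were 0.41 to 1.14. With replicates 4 to 6 alone 7 were called higher, and the log2 fold changes were 0.20 to 0.96. Of all genes, 22.4% and 21.8% were called higher in these settings. At this site the keratinocyte list rose in 5 of 10 genes and fell in none (median 0.74). The macrophage list had 5 of 10 genes higher and 1 lower, with sums of 1399 to 4480.1 CPM in SC gel skin, against 1264 to 1661 CPM in SC saline skin. Skeletal muscle genes fell in 8 of 8 tested, with sums of 10.9 to 1551 CPM in SC gel skin, against 27355 to 69449 CPM in SC saline skin. Hair follicle genes fell in 10 of 10, with sums of 15.4 to 657 CPM in SC gel skin, against 892 to 2991 CPM in SC saline skin. Sebaceous gland genes rose in 4 of 7, with sums of 1475 to 2985 CPM in SC gel skin, against 1069 to 1751 CPM in SC saline skin. Mast cell genes rose in 3 of 5, with sums of 152 to 263 CPM in SC gel skin, against 90.6 to 120.0 CPM in SC saline skin, and adipocyte genes in 3 of 5, with 604 to 3684 CPM in SC gel skin, against 741 to 1674 CPM in SC saline skin. Melanocyte genes rose in 5 of 5, 1 of which was at 0 in all SC saline libraries, while fibroblast genes fell in 3 of 7 and endothelial genes in 1 of 5. Their part in the rise of the members was not tested.

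The gel effects at the sites differed for every member in the test of the difference itself. The difference, the ID effect minus the SC effect, was called lower in 10 of 10 members, against 23.0% of all genes. It ran from -2.98 ± 0.41 for Pkp3 to -1.85 ± 0.24 for Jup on the log2 scale, with adjusted p of 6.35e-08 (Dsp) to 4.59e-06 (Evpl) by edgeR's quasi-likelihood test. The median over all genes was 0.12. Over all genes 32.8% were called higher in this test, and on log2 FPKM plus 1 the split turned to 18.1% higher and 38.8% lower. Of the marker lists, the difference was also called lower in 10 of 10 keratinocyte genes (median -2.82) and 6 of 7 sebaceous gland genes (-2.77). The same held for 5 of 5 mast cell genes (-2.17), 5 of 5 melanocyte genes (-2.36) and 4 of 5 adipocyte genes (-1.52). Melanocyte genes already differed between the saline groups, with 3 of 5 called higher in ID saline skin (median 2.01). In the other direction, the difference was called higher in 7 of 10 macrophage genes and 3 of 7 fibroblast genes. Dsg3, with the smallest fall after ID gel and the third largest rise after SC gel, had the second smallest difference, -1.91 ± 0.27.

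**Figure D2:**
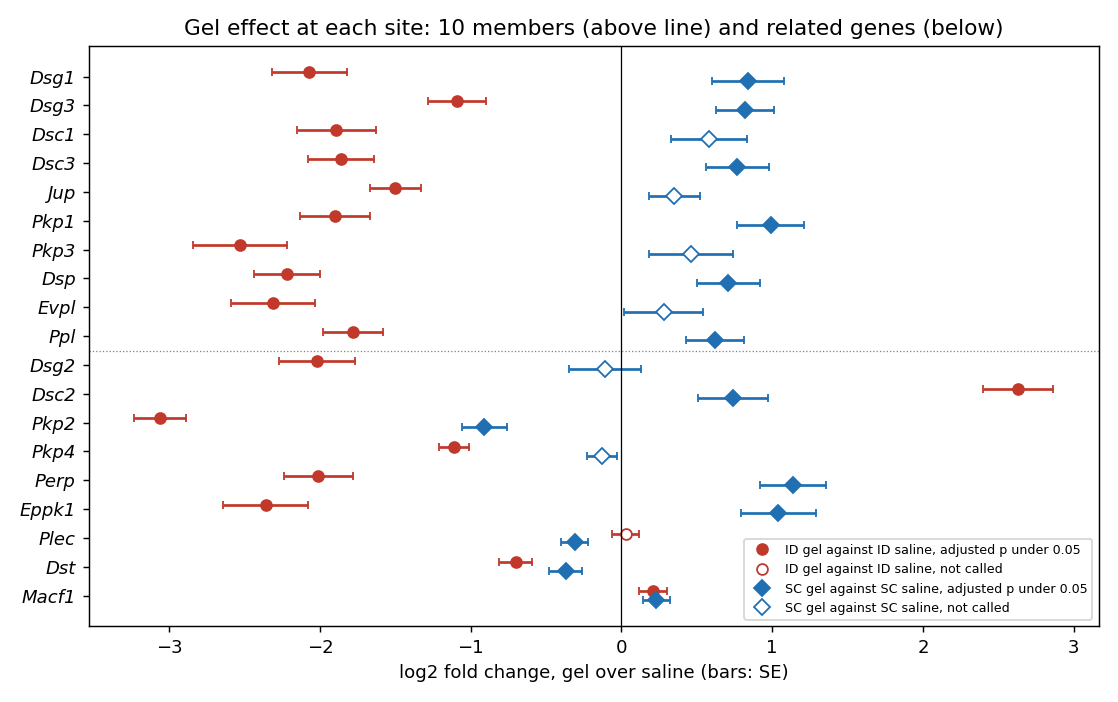
Log2 fold change of gel over saline (x axis, bars SE) at the ID site (red circles) and the SC site (blue diamonds) for the 10 members above the dotted line and 9 related genes below it, with filled symbols for an adjusted p under 0.05. All members lie left of 0 at the ID site, from -2.53 to -1.09, and right of 0 at the SC site, from 0.28 to 0.99, while Dsc2 lies right of 0 at both, at 2.63 and 0.74.

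Set directly against each other, ID gel skin was lower than SC gel skin in all 10 members, and no member's groups overlapped. How many of all genes were without overlap here was not computed. Of all genes, 28.0% were called lower and 40.1% higher in this comparison, against 43.2% and 22.8% on log2 FPKM plus 1. Log2 fold changes ran from -2.55 ± 0.22 (Dsp, adjusted p = 1.34e-09) to -1.58 ± 0.17 (Jup, 2.64e-08), with a median of 0.11 over all genes. This comparison shares its libraries with those above and is no independent measurement.

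Between the saline groups no member was called. The log2 fold changes, ID saline over SC saline, ran from 0.13 ± 0.19 (Dsg3) to 0.55 ± 0.28 (Pkp3), with adjusted p of 0.197 to 0.73 by edgeR's quasi-likelihood test, and 3.22% of all genes were called in either direction. Before adjustment, 1 member passed 0.05 in edgeR's test, Dsg1, with 0.53 ± 0.24. DESeq2, limma voom and limma on log2 FPKM also called 0. All 10 estimates were positive. The approximate 95% intervals reached 1.11 for Pkp3 (from -0.01), 0.99 for Dsg1 (from 0.06) and 0.88 for Pkp1 (from 0.02), so differences between the sites as large as the SC gel effects are not excluded.

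Relations between members changed as well. A ratio of counts within a library does not depend on the library's scaling, and 5 ratios were compared over 4 pairs of groups, 20 tests in all, of which 9 passed at an adjusted p under 0.05 (two-sided exact permutation test, smallest possible p 0.00216, Benjamini-Hochberg over the 20). Dsg1 had 2.94, 5.24 and 5.84 counts per count of Dsg3 as its lowest, median and highest values in ID gel skin, against 8.15, 9.48 and 11.9 in ID saline skin. The groups did not overlap. The ratio of the upper-layer to the lower-layer desmoglein was thus 2.09-fold lower after ID gel, a log2 difference of -1.06 (exact p = 0.00216, adjusted p = 0.00722).

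In SC gel skin the same ratio was 6.25, 7.56 and 10.1, against 6.02, 7.6 and 8.32 in SC saline skin, a log2 difference of 0.02 (exact permutation test, adjusted p = 0.896). It was lower in ID gel than in SC gel skin, by -0.71 (exact permutation test, adjusted p = 0.00722), and higher in ID saline than in SC saline skin, by 0.37 (0.0144), although their ranges overlapped. Whether the ratio's gel effect differed between the sites was not tested in itself. The desmocollin ratio, Dsc1 over Dsc3, did not pass in any of the 4 pairs, with log2 differences of -0.23 to 0.27 (adjusted p 0.148 to 0.733), but between ID gel and SC gel skin it passed without ID gel replicate 2 (0.35, adjusted p = 0.039, exact permutation test).

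Pkp1 had 11.4, 13 and 17.6 counts per count of Pkp3 in ID gel skin, against 7.45, 8.15 and 9.9 in ID saline skin, and 11.3, 12.8 and 15.9 in SC gel skin, against 7.56, 9.0 and 12.3 in SC saline skin. The ratio was higher with gel at both sites, by 0.68 log2 units at the ID site without overlap (exact permutation test, adjusted p = 0.00722) and by 0.52 at the SC site with overlap (0.0124). SC saline replicate 2, at 12.3, was the SC saline library inside the SC gel range.

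Jup had 0.311, 0.43 and 0.589 counts per count of Dsp in ID gel skin, against 0.24, 0.251 and 0.273 in ID saline skin. In SC gel skin it had 0.188, 0.212 and 0.231, against 0.226, 0.281 and 0.314 in SC saline skin. The ratio was higher with gel at the ID site, by 0.76 without overlap (exact permutation test, adjusted p = 0.00722), and lower with gel at the SC site, by -0.38 with overlap (0.0144). Between ID gel and SC gel skin it differed by 1.01 (0.00722). Evpl had 0.132, 0.203 and 0.217 counts per count of Ppl in ID gel skin, against 0.229, 0.293 and 0.314 in ID saline skin, and 0.18, 0.235 and 0.244 in SC gel skin, against 0.201, 0.282 and 0.345 in SC saline skin. Its ratio was lower in ID gel than in ID saline skin, by -0.59 (adjusted p = 0.00722, exact permutation test), and did not pass between SC gel and SC saline skin (-0.29, adjusted p = 0.148), although it did without SC saline replicate 5 (-0.38, adjusted p = 0.026).

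**Figure D3:**
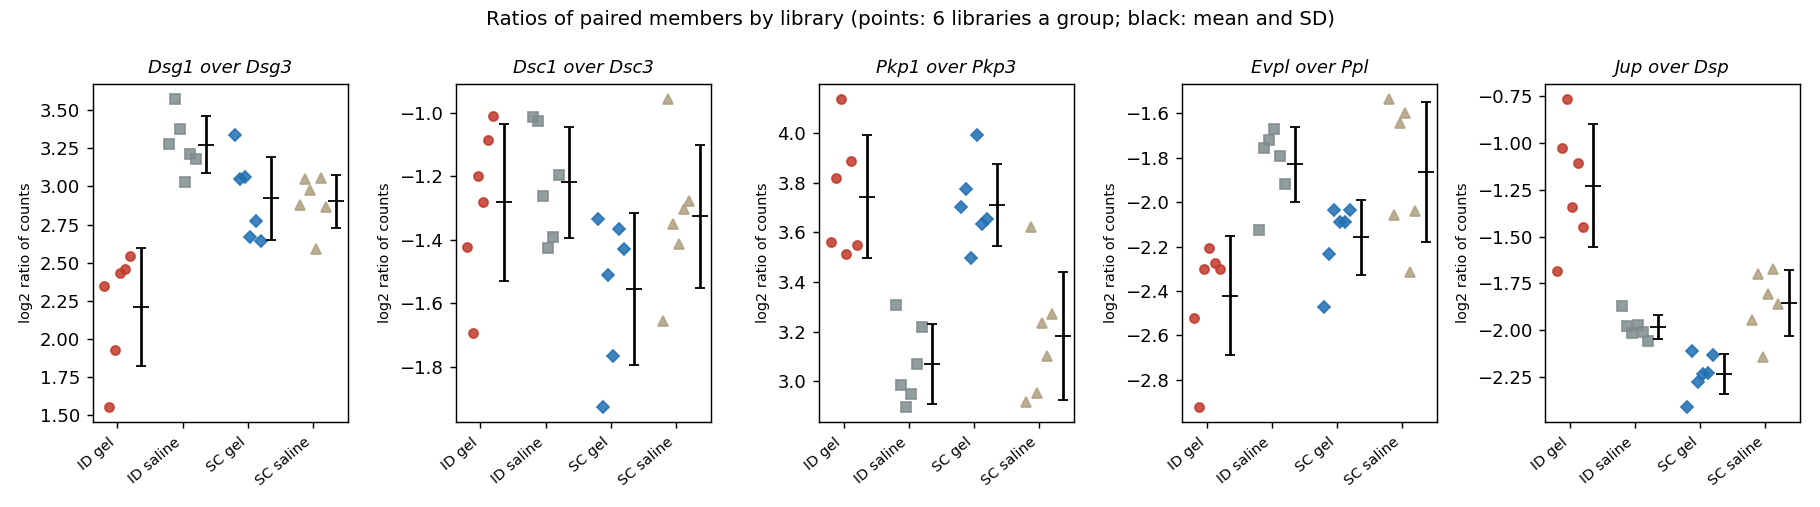
Log2 ratio of counts of paired members (y axis) in the 6 libraries of each group (x axis), with the mean and SD in black. ID gel points lie apart from ID saline points for Dsg1 over Dsg3 (mean 2.21 against 3.27), Pkp1 over Pkp3 (3.75 against 3.07), Evpl over Ppl (-2.42 against -1.83) and Jup over Dsp (-1.23 against -1.98), and overlap them for Dsc1 over Dsc3.

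Per gene length, Dsg1 had the highest mean FPKM of the members in all 4 groups, at 28.0 ± 13.6 in ID gel skin, 130.4 ± 33.5 in ID saline skin, 186 ± 43.0 in SC gel skin and 88.5 ± 24.5 in SC saline skin (SD, n = 6 each). Evpl had the lowest in all 4, at 1.66 ± 0.829 FPKM in ID gel skin, 9.17 ± 2.20 in ID saline skin, 11.1 ± 2.75 in SC gel skin and 7.86 ± 3.03 in SC saline skin. Dsp ranked 2 in ID saline, SC gel and SC saline skin and 4 in ID gel skin, where Jup ranked 2 (26.0 ± 7.61 FPKM). Neighbours near the top, such as Dsg1, Jup, Pkp1 and Dsp in ID gel skin (22.4 to 28.0 FPKM), did not differ beyond their SD. Dsg3 and Pkp3 changed places, with 5.14 ± 1.61 and 2.61 ± 1.48 FPKM in ID gel skin, against 12.2 ± 2.75 and 16.7 ± 5.14 FPKM in ID saline skin.

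Of the summed FPKM of the 4 cadherin members, Dsg3 made up 8.40% ± 2.09 in ID gel skin, against 4.48% ± 0.518 in ID saline skin, and 5.33% ± 0.788 in SC gel skin, against 5.15% ± 0.618 in SC saline skin (SD, n = 6 each). Dsg1 made up 41.9% ± 2.61 in ID gel skin, against 47.4% ± 1.42 in ID saline skin. Dsc1 stayed between 16.3% and 18.8% and Dsc3 between 30.1% and 34.4% in the group means. These shares are a description and were not tested apart from the ratios above.

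Dsc2, the desmocollin of simple epithelia and heart that lies between Dsc3 and Dsc1, went the other way from its neighbours at the ID site. It had 28.8, 38.1 and 52.6 CPM as its lowest, median and highest values in ID gel skin, against 4.97, 6.19 and 8.27 CPM in ID saline skin. The groups did not overlap, and ID gel replicates 1 to 3, where the members were lowest, had 42.0, 52.6 and 49.2 CPM, above replicates 4 to 6 with 34.2, 28.8 and 34.2 CPM. Its log2 fold change was 2.63 ± 0.23, a 6.18-fold rise (edgeR's quasi-likelihood test, adjusted p = 4.66e-10).

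In SC gel skin Dsc2 had 3.89, 9.32 and 13.5 CPM, against 4.63, 5.46 and 7.19 CPM in SC saline skin, with overlap through SC gel replicate 1. It rose by 0.74 ± 0.23 log2 units (adjusted p = 0.00885, edgeR's quasi-likelihood test), a call that was lost with gel replicates 1 to 3 alone (0.57, adjusted p = 0.0829). The gel effects on Dsc2 differed between the sites by 1.89 ± 0.32 (adjusted p = 2.47e-05). Of the summed FPKM of the 3 desmocollins, Dsc2 made up 22.0% ± 10.9 in ID gel skin (12.2% to 37.6%), against 1.09% ± 0.217 in ID saline skin, and 1.14% ± 0.549 in SC gel skin, against 1.09% ± 0.141 in SC saline skin. Dsc2 was singled out after its values were seen. Within the macrophage list, Mpeg1 averaged 2680 CPM in ID gel skin against 54.4 in ID saline skin and Cd14 596 against 41.6. Of that list 7 of 10 genes were called higher and 3 were not called, with a lowest log2 fold change of -0.44. The part of these genes in the rise of Dsc2 was not tested.

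**Figure D4:**
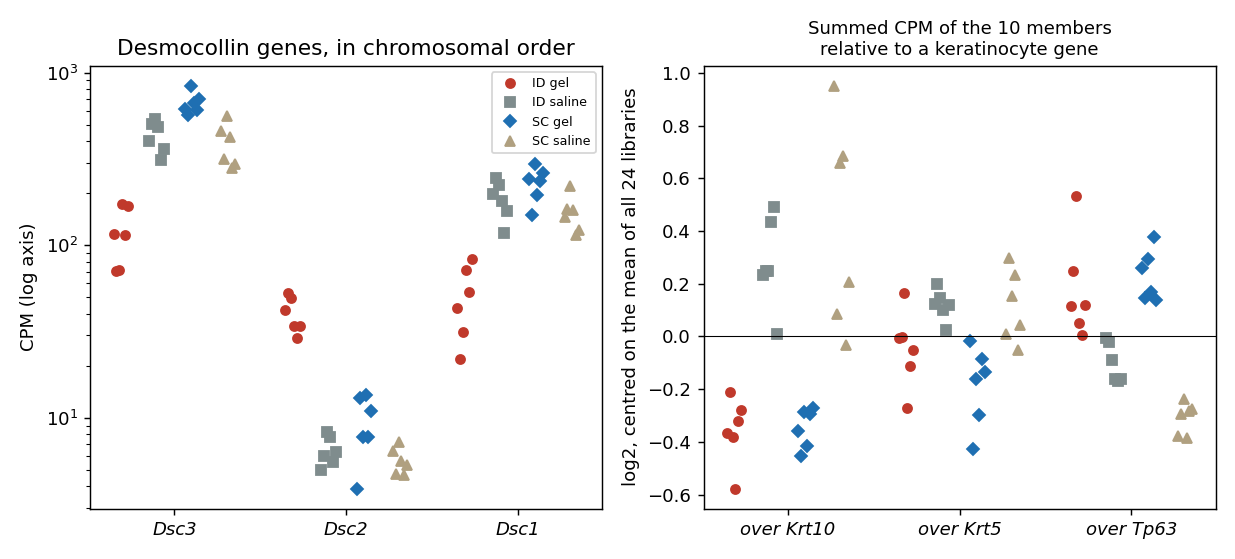
Left, CPM (log axis) of the desmocollins in chromosomal order, where Dsc2 alone has its ID gel libraries (28.8 to 52.6 CPM) above its ID saline libraries (4.97 to 8.27 CPM). Right, summed CPM of the 10 members divided by the CPM of Krt10, Krt5 or Tp63, as log2 centred on the mean of all 24 libraries, where gel points tend low over Krt10 and high over Tp63 at both sites.

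Of the 8 other desmosome genes listed, Dsg4, Dsg1b and Dsg1c had no row under those names and 5 were tested. After ID gel 4 of the 5 tested fell and 1, Dsc2, rose. Dsg2, the desmoglein shared with simple epithelia, fell by 2.02 ± 0.25 log2 units after ID gel, and Pkp2, the main plakophilin of the heart, fell by 3.06 ± 0.17, to 0.444 to 0.914 CPM in ID gel skin, against 4.78 to 7.3 CPM in ID saline skin. Pkp4, which also sits at adherens junctions, fell by 1.11 ± 0.10, and Perp, a membrane protein that desmosomes of stratified epithelium need, by 2.01 ± 0.23. After SC gel, Perp rose by 1.14 ± 0.22 and Pkp2 fell by 0.91 ± 0.15 (adjusted p = 0.000178 and 3.44e-05, edgeR's quasi-likelihood test), while Dsg2 (-0.11 ± 0.24) and Pkp4 (-0.13 ± 0.10) did not pass and were above 0 on the FPKM scale. Pkp2 was the 1 gene of this set called between the saline groups (0.57 ± 0.15, adjusted p = 0.036).

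Of the other plakins, Eppk1, epiplakin of epithelial cells, fell by 2.36 ± 0.28 after ID gel and rose by 1.04 ± 0.25 after SC gel (adjusted p = 6.8e-08 and 0.00143, edgeR's quasi-likelihood test). The broadly expressed plakins moved less. Dst, which includes the hemidesmosomal plakin BPAG1 and isoforms of other tissues, fell by 0.70 ± 0.11 after ID gel and by 0.37 ± 0.11 after SC gel. Plec, plectin, was at 0.03 ± 0.09 after ID gel (adjusted p = 0.784; 0.00 to -0.13 under other scalings) and fell by 0.31 ± 0.09 after SC gel. Macf1, a plakin that joins actin and microtubules, rose by 0.21 ± 0.09 and 0.23 ± 0.09 at the ID and SC sites (adjusted p = 0.0485 and 0.0442). Without SC saline replicate 2 the SC falls were -0.13 for Plec (adjusted p = 0.261) and -0.15 for Dst (0.205), and the Macf1 calls were lost in 25 and 6 of 35 other settings.

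The junctions and layers around the desmosome were read against the shares of all genes called, 36.6% higher and 37.0% lower after ID gel and 24.7% higher and 26.1% lower after SC gel. Hemidesmosome genes, which anchor basal cells to the basement membrane, fell in 6 and rose in 2 of 8 after ID gel (median -0.98) and rose in 7 of 8 after SC gel (median 0.69). Itgb4, the integrin of the hemidesmosome, fell by 1.97 ± 0.18 after ID gel, while Cd151, a tetraspanin of many cell types, rose by 0.42 ± 0.08. Col17a1, the transmembrane collagen of the hemidesmosome, rose by 1.5 ± 0.15 after SC gel. Adherens junction genes were split after ID gel, with 7 lower and 3 higher of 10. Cdh1, the epithelial cadherin, was at -2.18 ± 0.25 and Nectin4 at -2.45 ± 0.25, while Ctnna1, the alpha-catenin of adherens junctions, rose by 1.53 ± 0.11 to 843 CPM in ID gel skin, against 291 CPM in ID saline skin. After SC gel 1 adherens junction gene was higher, Ctnna1 (0.42 ± 0.10), and 3 were lower.

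Tight junction genes fell in 9 of 10 tested after ID gel (median -1.76), with Cldn1, the claudin of the skin barrier, at -2.51 ± 0.23. After SC gel 2 of 10 rose and 1 fell, both below the shares of all genes, and Tjp3, a scaffold of tight junctions, was the called gene with the smallest adjusted p (1.14 ± 0.18). Corneodesmosome genes and their proteases fell in 8 of 8 after ID gel (median -1.86), among them Klk5, a protease that cuts corneodesmosomes, by 2.14 ± 0.24, and Spink5, its inhibitor, by 1.88 ± 0.22. After SC gel 3 of 8 rose, with Spink5 at 1.24 ± 0.21. Genes of cornified envelope crosslinking, the step in which Evpl and Ppl take part, fell in 9 of 10 after ID gel (median -1.55) and after SC gel rose in 6 and fell in 1 (median 1.06). Ivl, involucrin, fell at both sites, at -3.66 ± 0.32 after ID gel and -1.61 ± 0.28 after SC gel, while Tgm3, a transglutaminase of the envelope, rose by 2.04 ± 0.23 after SC gel.

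Suprabasal keratins fell in 4 of 4 after ID gel and rose in 2 of 4 after SC gel. Krt10, the keratin of the suprabasal layers, averaged 1202 CPM in ID gel skin against 2994 CPM in ID saline skin, and 5933 CPM in SC gel skin against 2093 CPM in SC saline skin. Krt5, the basal keratin, fell by 1.75 ± 0.23 after ID gel and rose by 1.03 ± 0.23 after SC gel. Transcription factors of the epidermis fell in 11 of 12 after ID gel, with Tp63, the master factor of stratified epithelium, at -2.20 ± 0.24, and the exception was Klf4 (0.42 ± 0.12). After SC gel 2 of 12 rose, a share below the 24.7% of all genes, namely Klf4 by 0.72 ± 0.12 and Ehf by 0.95 ± 0.26. The adjusted p of each gene named here was under 0.05 over all genes by edgeR's quasi-likelihood test.

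The members were set against these keratinocyte genes within each library, as a description with no test. Their summed CPM was 0.726 ± 0.0611 times that of Krt10 in ID gel skin, against 1.13 ± 0.131 times in ID saline skin, and 0.729 ± 0.0377 times in SC gel skin, against 1.28 ± 0.348 times in SC saline skin (SD, n = 6 each). Over Krt5 it was 2.78 ± 0.275 in ID gel and 3.11 ± 0.124 in ID saline skin, and 2.53 ± 0.254 in SC gel and 3.11 ± 0.293 in SC saline skin. Over Tp63 it was 24.9 ± 3.51 in ID gel and 20.3 ± 1.04 in ID saline skin, and 25.6 ± 1.73 in SC gel and 17.6 ± 0.687 in SC saline skin. With gel the sums were thus lower against Krt10 and higher against Tp63 at both sites. Krt10 does not stand for all suprabasal keratins, since Krt77 (-2.80 ± 0.34) and Krt2 (-2.76 ± 0.44) fell more after ID gel than the members' median of -1.90.

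Among the genes with a pattern most like the mean of the members, by the root mean square distance of centred log2 CPM over the 24 libraries among 12668 genes, were Arhgef5 (0.111 log2 units), Them5 (0.131) and Rapgefl1 (0.138). For single members, among 12677 genes, the nearest gene was Serpinb5 for Dsg1 (0.109), Krt5 for Pkp1 (0.109), Esrp1 for Dsp (0.11) and Epcam for Pkp3 (0.196). It was Lrrc1 for Dsg3 (0.186), Map2 for Dsc1 (0.167), Cep170b for Jup (0.15), Lratd1 for Evpl (0.172) and Clca5 for Ppl (0.166). Among the members themselves, Dsg1 and Pkp1 were closest (0.121) and Dsg3 and Pkp3 farthest apart (0.665). Dsg3 was also farthest from the members' mean (0.391), followed by Pkp3 (0.316) and Jup (0.305), and Dsg1 was nearest to it (0.118). These distances also carry the groups' differences, and no p is attached to them.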

How the data were processed

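Counts per gene and library, and FPKM beside them, were deposited in 1 table, as read per the file headers; the submitters' processing notes name FastQC 0.11.2, Trimmomatic 0.36, StringTie 1.3.3b, DESeq2 1.12.4 and Rnor_6.0. Neither the aligner nor the counter with its strand setting is given in the sources used here. An emptied line of the table is not analysed here. For the gene lists, 284 rows were set aside because their symbol and Entrez number pointed to different genes, and 753 rows took a RefSeq symbol through that number. Of 23095 genes, 14763 passed filterByExpr. Counts were fitted in edgeR 4.0.16 (R 4.3.3; TMM factors 0.845 to 1.224; 1 mean per group over 24 libraries) with the quasi-likelihood test and Benjamini-Hochberg adjustment over all genes at 0.05; the code was tested on simulated data. The SE was taken from the F statistic and the log2 fold change, and approximate 95% intervals are 1.96 SE to each side. Ratios used counts plus 0.5 and a two-sided exact permutation test. Other settings were DESeq2 1.42.0, limma 3.58.1 (voom; log2 FPKM plus 1 or 0.1), RLE factors, other filters, a replicate block, the groups of a contrast alone, gel replicates 1 to 3 or 4 to 6 alone and each library left out.

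All members were named, with every measured gene of the other desmosome genes and other plakins. From each further list up to 3 genes per direction and contrast with the smallest adjusted p could be named, and for likeness the nearest genes with a mean log2 CPM of at least 1. The members and lists were chosen with earlier results of these data known. Some of the nearest genes in the likeness search are not reported here.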

Additional observations from a re-analysis of the deposited data

Results flagged for a closer look

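SC gel replicate 3 stood apart from the other 5 SC gel libraries for Dsp, at 1934 CPM, and for Evpl, at 85.5 CPM, with gaps to the next library of 0.733 and 0.673 of the group's range. These were 2 of 96 groups examined, and chance flags about 1 in 20. Replicate 3 was also the highest SC gel library for Krt5 (2257 CPM), Krt10 (7619 CPM), Tp63 (216 CPM) and the hair keratin Krt71 (201 CPM). It was not the highest for the macrophage gene Cd68 (78.7 CPM). The gel effect differed between the sites, as the ID effect minus the SC effect on the log2 scale, in all 10 members by edgeR's quasi-likelihood test with adjusted p from 6.35e-08 to 4.59e-06. The difference was -2.92 for Dsg1, -1.91 for Dsg3, -2.46 for Dsc1 and -2.63 for Dsc3 among the cadherins. It was -1.85 for Jup, -2.89 for Pkp1 and -2.98 for Pkp3 among the armadillo proteins, and -2.92 for Dsp, -2.59 for Evpl and -2.40 for Ppl among the plakins. Among related genes it was -1.90 for Dsg2, 1.89 for Dsc2, -2.14 for Pkp2, -0.98 for Pkp4, -3.15 for Perp and -3.40 for Eppk1. For Plec it was 0.34 (adjusted p = 0.0346), a call that was lost in 24 of 34 other settings and changed sign in 2, at -0.07 on log2 FPKM. Without SC saline replicate 2 alone the Plec difference was 0.15 (adjusted p = 0.361).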

How the results depend on the processing

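The members' 50 results (10 genes, 5 contrasts) were recomputed in 1740 alternatives: 1715 kept direction and call, 25 gained a call (Dsc1, Jup or Pkp3, SC gel against SC saline), and none lost one or reversed. With each library left out in turn, members called stayed at 10 for ID gel against ID saline, the difference of gel effects and ID gel against SC gel, at 0 between the saline groups, and at 6 to 8 for SC gel against SC saline, where the other settings gave 6 to 9. The Dsc1 call was gained without SC gel replicate 2 or 4, SC saline replicate 2 or 3, ID gel replicate 2, 3, 4 or 6 or ID saline replicate 2 or 5, and the Jup call without SC saline replicate 2 or ID gel replicate 2 or 4. Same-numbered libraries correlated at -0.172 to 0.421 within pairs of groups. Of 6 libraries, 0 correlated best with their own number between ID gel and ID saline skin and 1 between SC gel and SC saline skin. Between the gels it was 3 and between the salines 2. Each correlation was taken over the genes tested, between 2 libraries' deviations from their group means. With 6 libraries in a group they cannot settle whether the numbers mark shared animals, which the labels do not say. The replicate block left the members' calls at 10, 6, 10, 10 and 0. With a paired sign-flip test (replicate block) 0 of 20 ratios passed. The smallest possible p of the sign-flip test is 0.0312 before adjustment over the 20, and the adjusted p of the 9 was 0.0625. Leaving out a library gave 9 to 10 ratios, the gains being Dsc1 over Dsc3 between gels (without ID gel replicate 2), Evpl over Ppl between gels (without ID gel replicate 4 or SC gel replicate 1) and at the SC site (without SC saline replicate 5), and Jup over Dsp between salines (without SC saline replicate 3). Sign changes occurred in related genes and ratios only, among the results recomputed. Plec at the ID site gave 0.0 (RLE, DESeq2), -0.03 (voom), -0.12 and -0.13 (FPKM) and -0.01 to 0.09 with a library left out, and its difference between sites gave -0.07 on FPKM and 0.15 to 0.37 with a library left out, its call being lost in 24 of 34 settings. Dsg2 at the SC site gave 0.12 and 0.15 on FPKM and -0.22 to 0.04 with a library left out. Pkp4 there gave 0.09 and 0.10, and -0.16 to 0.01. The difference for Macf1 ran from -0.17 to 0.02 with a library left out. On log2 FPKM plus 1 and plus 0.1 the Macf1 difference was called, at -0.37 and -0.41 (limma, adjusted p = 0.0395 and 0.0408). Among ratios, Pkp1 over Pkp3 between gels gave -0.01 (count plus 5, FPKM) and -0.04 to 0.09, Dsc1 over Dsc3 at the ID site -0.12 to 0.02, Dsg1 over Dsg3 at the SC site -0.06 to 0.08 and Evpl over Ppl between salines -0.05 to 0.10. On log2 FPKM plus 1, with 43.9% of genes higher and 15% lower at the SC site, adherens junction genes gave 4 higher and 0 lower, tight junction genes 4 and 0, corneodesmosome genes 5 higher, transcription factors 5 higher, and other plakins 0 lower. At the ID site, RLE and FPKM gave 1 hemidesmosome gene and 0 other plakins higher, FPKM gave 0 transcription factors higher, and RLE gave 1 adherens junction gene lower at the SC site. The cause was not tested.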
